A study of Mus musculus with 14 samples.

Results

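Ribosome-bound RNA of Adad2 mutant germ cells was compared with that of wild-type germ cells in the 7 libraries made from RNA pulled down with tagged ribosomes (IP), out of 14 libraries in the series. The other 7 libraries hold the total testis RNA (input) of the same animals, and the IP values here were not divided by it. All 7 mice were C57BL/6 males whose testes were taken at 21 dpp, and all were heterozygous for both Rpl22-HA, the RiboTag allele that puts an HA tag on a large-subunit ribosomal protein after Cre recombination, and Stra8-iCre, which is active in differentiating germ cells. They were either wild type (Adad2 +/+, n = 3, animals 121, 140 and 17) or homozygous for the em3 allele of Adad2 (Adad2 M/M, n = 4, animals 12, 69, 93 and 94). Each library is 1 animal, and because the tag depends on Stra8-iCre the pull-down is aimed at cells of the germline from spermatogonia onward. It also held RNA of other cells, such as the Sertoli cell marker Clu at 9.14 to 127 CPM. Of 53337 annotated genes in the tables, 9453 had at least 10 counts in every one of the 7 IP libraries and were tested. Of these, 9029 are protein coding.

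ADAD2 is an adenosine deaminase domain-containing RNA-binding protein of meiotic male germ cells, where it sits in cytoplasmic granules. In the testis at this age most germ cells are in meiotic prophase, and only the earliest round spermatids have formed. A transcript's amount in the pull-down depends both on how much of it the tagged cells hold and on how much of it is on ribosomes. RNA carried along without being on tagged ribosomes can add to it. The noncoding RNA Malat1 had 474 to 1044 CPM in IP, against 1993 to 3380 in input. IP values alone therefore do not separate abundance from ribosome association. In bulk tissue, fewer cells of a type and less RNA per cell cannot be told apart.

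The IP libraries held 25037235 to 30871330 counts, and totals did not set the genotypes apart. The number of annotated genes with any count did. It was 19668 to 21894 in wild-type IP and 12748 to 15032 in mutant IP (means 21076 and 13975), at an exact two-sided permutation p of 0.0286, the smallest that 35 splits of the animals allow. Of 54 spike-in RNAs with a wild-type IP mean of at least 20 counts, 4 to 12 were at 0 in each mutant IP library and none in wild type. The mutant libraries also differed more from one another, with a median SD over genes of 0.437 on the log2 scale of normalised counts, against 0.178 in wild type. The fewest genes were found in the mutant libraries of animals 12 and 69. Counts for several of the gene groups are therefore also given without them, a choice made after seeing the data.

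Adad2 itself was the only gene whose level differed at an adjusted p under 0.05 in edgeR. It lies at chr8:119612747-119616924 on the plus strand of GRCm38. Normalised CPM, which are counts scaled to library size with TMM factors, were 113, 125 and 113 in wild-type IP and 13.2, 14.2, 11 and 7.78 in mutant IP. Every mutant library lay far below every wild-type library. Ribosome-bound Adad2 RNA fell to 0.0986 of the wild-type level, a log2 fold change of -3.34 (SE 0.25, adjusted p = 5.43e-04, mutant over wild type as throughout), from a mean of 117 ± 6.45 (SD, n = 3) to 11.6 ± 2.85 (SD, n = 4). In input the log2 fold change of Adad2 was -1.71 (SE 0.32, unadjusted p = 3.80e-04, adjusted p = 0.137).

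No gene was higher in mutant IP at an adjusted p under 0.05 (0% of 9453), and Adad2 was the single gene that was lower (0.0106%). With unadjusted p under 0.05, edgeR gave 523 genes higher (5.53%) and 575 lower (6.08%). These numbers were 227 to 306 and 321 to 379 with any 1 wild-type library left out, and 848 and 896 without mutant 12. DESeq2 called 38 higher (0.402%) and 64 lower (0.677%) at an adjusted p under 0.05, and limma voom with quality weights per library called 12 and 21. Without mutant IP libraries 12 and 69, edgeR called 106 higher and 312 lower among 11510 genes. The log2 fold changes had a median of 0.04 and an interquartile range of -0.23 to 0.30, with 271 genes at least doubled and 170 at most halved. In 638 genes every mutant IP library lay above every wild-type one (6.75%), and in 682 every one lay below (7.21%). Overlap between genotypes was judged in normalised CPM unless TPM is named. The genes below are therefore given by their values, and apart from Adad2 none passed the adjusted test.

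**Figure D1:**
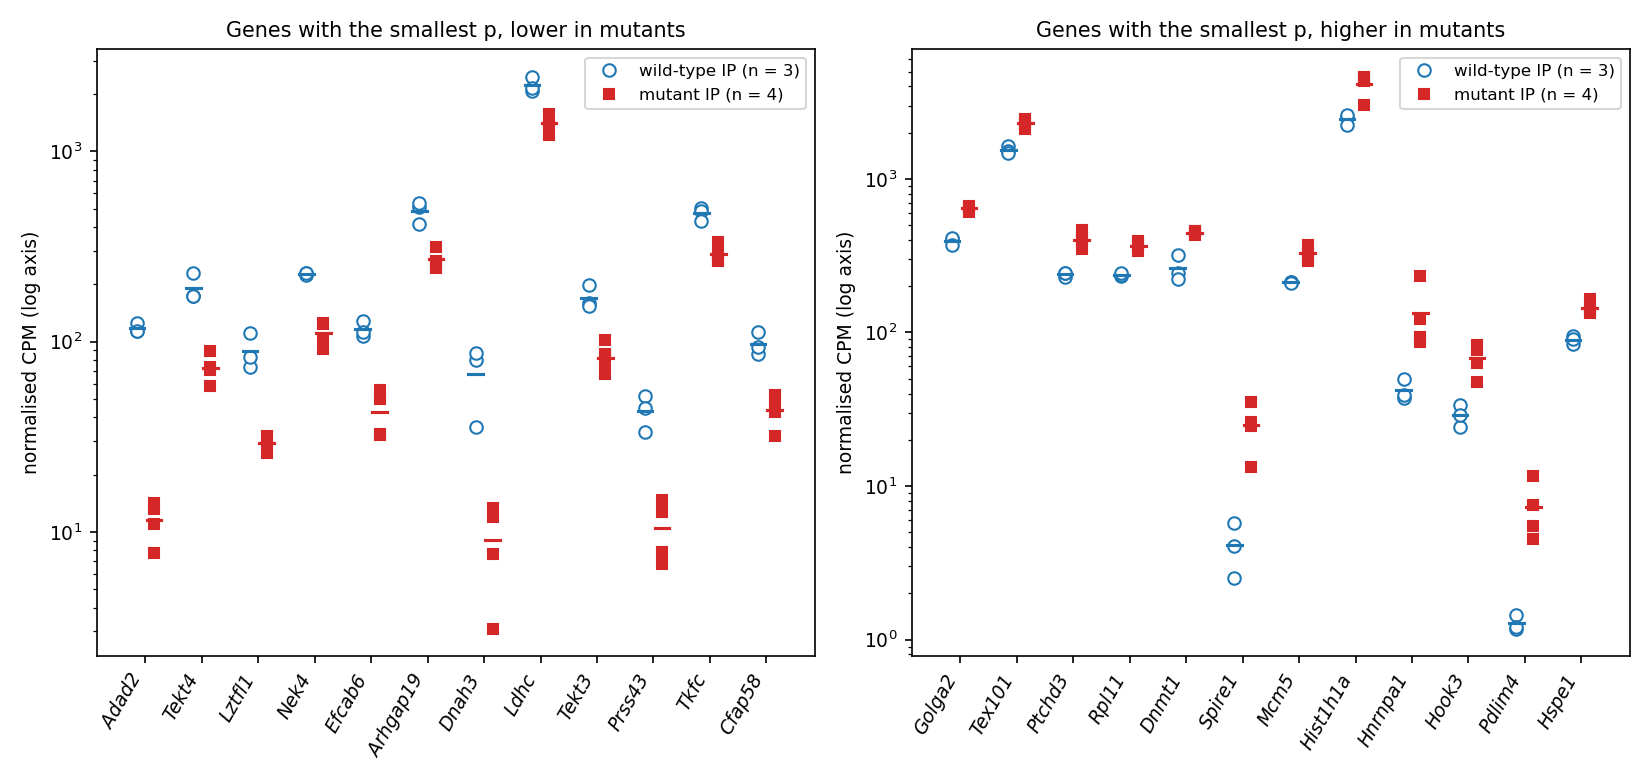
Normalised CPM on a log axis in each IP library for the 12 genes of smallest p in either direction whose genotypes do not overlap. Open circles are wild-type libraries (n = 3), filled squares mutant libraries (n = 4) and short lines the means. Adad2 shows the widest gap on the left, from 113 or more in wild type to 14.2 or less in mutants.

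Among genes with lower values in mutants, Tekt4 and Lztfl1 had the lowest p after Adad2. Tekt4, which encodes a tektin filament protein of the axoneme, the microtubule core of cilia and flagella, had 230, 173 and 173 CPM in wild type and 70.6, 73.3, 89.6 and 58.1 in mutants. The mutant values were all under the lowest wild-type value, with a log2 fold change of -1.40 (SE 0.19, adjusted p = 0.0571). Lztfl1, a regulator of protein traffic into cilia, had 73.8, 82.5 and 111 CPM in wild type and 26.0, 31.4, 31.7 and 27.8 in mutants. Its log2 fold change was -1.61 (SE 0.22, adjusted p = 0.0571), and the mutants differed among themselves by little in CPM. In TPM they ran from 6.8 to 37.

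Dnah3, an inner-arm axonemal dynein heavy chain, had 79.9, 35.5 and 87.2 CPM in wild type and 11.9, 7.60, 3.09 and 13.4 in mutants. The genotypes were clear of each other although both were spread widely, and the log2 fold change was -2.91 (SE 0.49, adjusted p = 0.113). Tekt3, a second tektin, had 199, 160 and 153 CPM in wild type and 67.2, 74.4, 102 and 85.6 in mutants (log2 fold change -1.05, adjusted p = 0.113). Cfap58, a protein associated with cilia and flagella, had 113, 85.6 and 94.0 CPM against 52.1, 48.7, 42.5 and 31.7 (log2 fold change -1.16, adjusted p = 0.142). Efcab6, an EF-hand calcium-binding protein, was at 116 ± 10.5 CPM (SD, n = 3) in wild type and 42.6 ± 11.9 (SD, n = 4) in mutants. Nek4, a NIMA-related kinase, was at 227 ± 3.73 against 110 ± 17.3 CPM (log2 fold change -1.04, adjusted p = 0.0869). The remaining genes of this rank were Arhgap19 (log2 fold change -0.84), Ldhc, the germ cell lactate dehydrogenase (-0.66), Prss43, a testis serine protease (-2.04), and Tkfc, a triokinase (-0.71).

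As a group, axoneme and cilium motility genes were placed almost wholly below 0. Of 70 in the annotation 57 passed the count filter, and of the 13 that did not, 10 passed in wild type alone. Log2 fold changes were below 0 for 56 of the 57 (46.2% of all genes tested), with a median of -0.41 against 0.04 for all genes. Dnal4, a dynein light chain, was the exception. With unadjusted p under 0.05, 27 were lower and 0 higher in edgeR, where 6.08% of all genes were lower. At an adjusted p under 0.05 DESeq2 called 5 lower (0.677% of all genes) and 0 higher (0.402%). Without wild-type 121 the number lower with unadjusted p under 0.05 in edgeR was 15, against 321 of all 9463 genes. In 23 the genotypes did not overlap, mutants lower (7.21% of all genes). All 4 tektins kept were among the 27, with a median of -0.84, as were 7 of 14 axonemal dynein genes and 10 of 25 genes of the Cfap family. Summed over the list, mutants had 17997 to 25826 CPM and wild type 28015 to 31094. Without mutant libraries 12 and 69, the edgeR test called 22 of 61 lower at an adjusted p under 0.05 and 0 higher. Over all 11510 genes it then called 312 lower and 106 higher. In input the median of the list was -0.38.

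Start-site sequences were examined for this group because its members lay together below 0. Those of the members Tekt4 and Cfap58 are printed, with that of Lztfl1, which is not in the list. They are from RefSeq (GRCm38.p6), from 250 bases before to 50 after the annotated start, 5′ to 3′ on the gene's strand. Capitals mark GTTGCC or its reverse complement, the half-site of the X-box that RFX factors bind at many cilium genes. Each printed sequence holds the half-site, so they do not stand for the group. Tekt3, of lower p than Cfap58, is not printed. Tekt4 is at chr17:25471340-25471639 (plus strand), Cfap58 at chr19:47937462-47937761 (plus strand) and Lztfl1 at chr9:123717576-123717875 (minus strand).
Tekt4: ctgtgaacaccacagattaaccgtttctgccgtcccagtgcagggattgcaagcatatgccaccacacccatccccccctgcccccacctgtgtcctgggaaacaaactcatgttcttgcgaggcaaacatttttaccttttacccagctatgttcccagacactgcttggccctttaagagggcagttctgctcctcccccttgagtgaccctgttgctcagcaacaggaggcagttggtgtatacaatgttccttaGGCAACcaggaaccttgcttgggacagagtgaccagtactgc
Cfap58: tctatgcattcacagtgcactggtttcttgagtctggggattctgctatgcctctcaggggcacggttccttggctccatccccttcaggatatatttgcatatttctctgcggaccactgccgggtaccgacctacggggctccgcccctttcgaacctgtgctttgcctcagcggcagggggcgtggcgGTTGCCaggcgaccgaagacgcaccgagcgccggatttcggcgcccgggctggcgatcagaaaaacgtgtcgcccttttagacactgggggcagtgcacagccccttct
Lztfl1: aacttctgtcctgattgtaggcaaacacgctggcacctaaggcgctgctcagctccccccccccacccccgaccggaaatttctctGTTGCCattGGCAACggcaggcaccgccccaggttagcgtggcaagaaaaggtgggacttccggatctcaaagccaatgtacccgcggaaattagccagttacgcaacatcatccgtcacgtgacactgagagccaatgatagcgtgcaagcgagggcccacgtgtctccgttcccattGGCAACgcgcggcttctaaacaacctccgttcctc
The Lztfl1 sequence holds a pair of facing half-sites 3 bases apart and 1 more near its start. Of 48 axoneme genes with a sequence of this length, 39.6% held the half-site on either strand, against 13.9% of 7337 genes tested and 12.7% of all 27025. The share was 25.9% of 27 late pachytene and diplotene markers, so it was not raised in the axoneme list alone. Among 55 cytosolic ribosomal protein genes it was 5.45%. Of the other motifs searched on both strands, CAACTG, bound by MYB factors, was in 27.1% of the 48 against 10.7%, and TGACGTCA, the cyclic AMP response element, in 2.08% against 3.82%. TGACG, the core contained in that element, was in 20.8% against 35%. These are letter matches in 1 annotated start per gene.

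**Figure D2:**
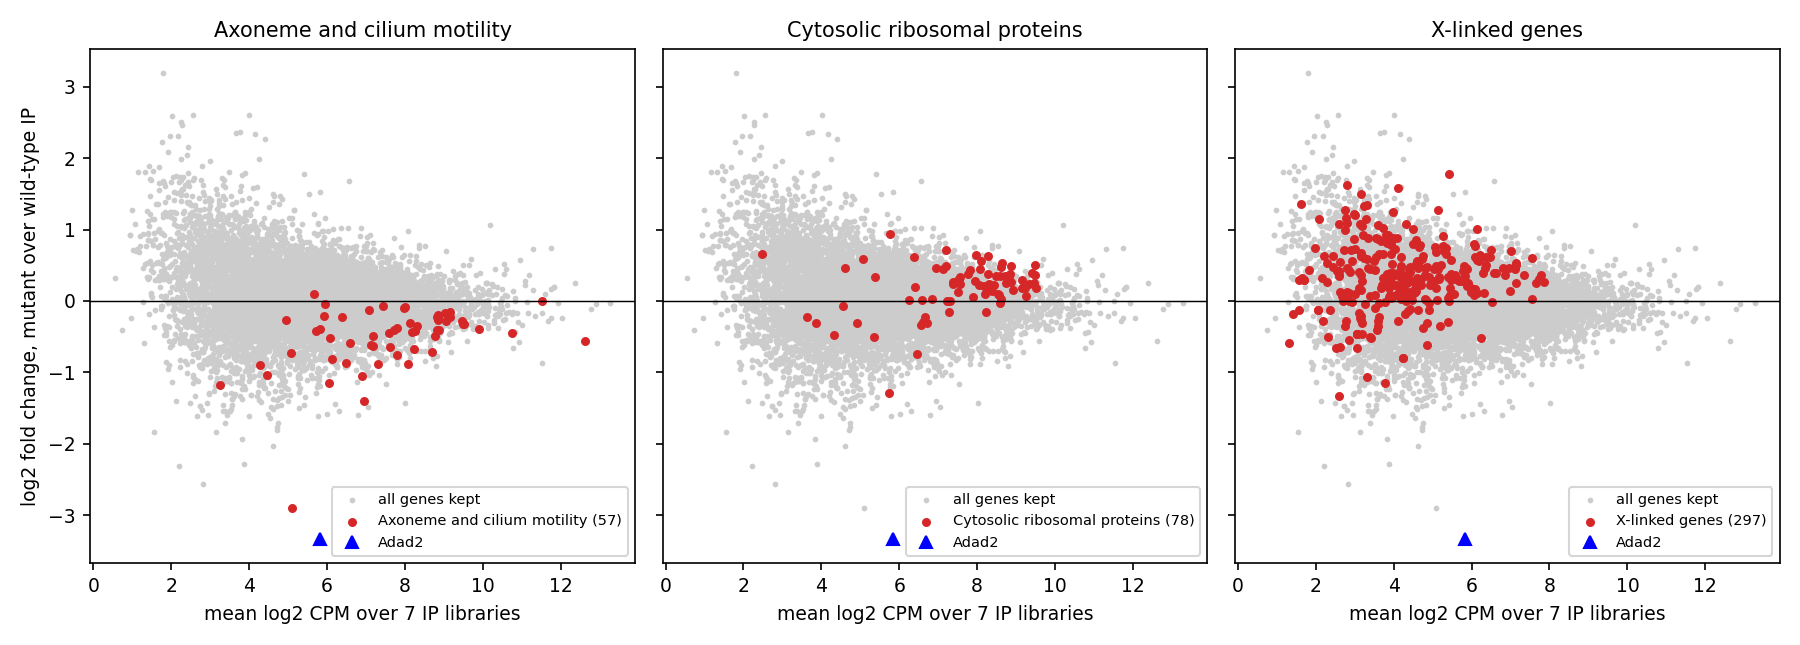
Log2 fold change of mutant over wild-type IP against mean log2 CPM over the 7 IP libraries, for all 9453 genes in grey, members of 3 gene groups in red and Adad2 as a triangle. Axoneme genes lie below 0 apart from 1, most ribosomal protein genes lie just above 0 at high levels, and 240 of 297 X-linked genes lie above 0.

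Lists of marker genes for successive stages of the germline had medians that ran from above to below 0. Differentiating spermatogonia and cells entering meiosis had 15 of 19 genes above 0 with a median of 0.42, and 8 were higher and 0 lower with unadjusted p under 0.05, where 5.53% of all genes were higher. Tex101, a surface glycoprotein of germ cells, had 1634, 1518 and 1482 CPM in wild type and 2101, 2470, 2290 and 2351 in mutants. All mutant libraries were above all wild-type libraries (log2 fold change 0.58, SE 0.10, adjusted p = 0.113). Mcm2, a subunit of the replicative helicase, had a log2 fold change of 0.55 and Prdm9, the enzyme that marks sites of meiotic recombination, one of 0.71. For early meiotic spermatocytes the median was 0.07, with 20 of 33 above 0. Mlh3, a crossover factor, had 97.7, 146 and 137 CPM in wild type and 86.0, 29.0, 34.0 and 25.5 in mutants (log2 fold change -1.54, adjusted p = 0.253). Animal 12 was close to wild type there, unlike the other mutants. The crossover factor Cntd1 was at -0.49 and M1ap, a protein needed for male meiosis, at 0.65.

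Markers of late pachytene and diplotene spermatocytes were below 0 in 30 of 36 genes with a median of -0.42, and 19 were lower and 0 higher with unadjusted p under 0.05, where 6.08% of all genes were lower. Without wild-type 140, 12 were lower, against 379 of all 9480 genes. Ldhc had 2462, 2066 and 2151 CPM in wild type and 1381, 1578, 1450 and 1212 in mutants (log2 fold change -0.66, SE 0.12, adjusted p = 0.113). Every mutant library was below every wild-type library. Adam5, a germ cell surface protein, was at -0.80 and Pdha2, the testis form of a pyruvate dehydrogenase subunit, at -0.43. Of 46 round spermatid markers, 13 were kept and 12 of these were below 0 (median -0.69), while 18 more had at least 10 counts in every wild-type library and fewer in some mutant. Acrv1, an acrosome protein, had 50.5, 30.5 and 52.4 CPM in wild type and 5.24, 21.5, 16.0 and 7.82 in mutants (log2 fold change -1.81, adjusted p = 0.253). The mutant values differed from one another more than the wild-type ones in proportion, yet none reached the wild-type range. Tnp1, a transition protein of later spermatids, had 3, 0 and 10 counts in wild type and 0 in all 4 mutants. Without mutant libraries 12 and 69, edgeR called 15 of 37 late pachytene markers lower at an adjusted p under 0.05, against 312 of all 11510 genes. It called 6 of 19 spermatogonial markers higher, against 106 of all genes. Input medians were 0.24, -0.38 and -0.62 for the spermatogonial, late pachytene and round spermatid lists.

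**Figure D3:**
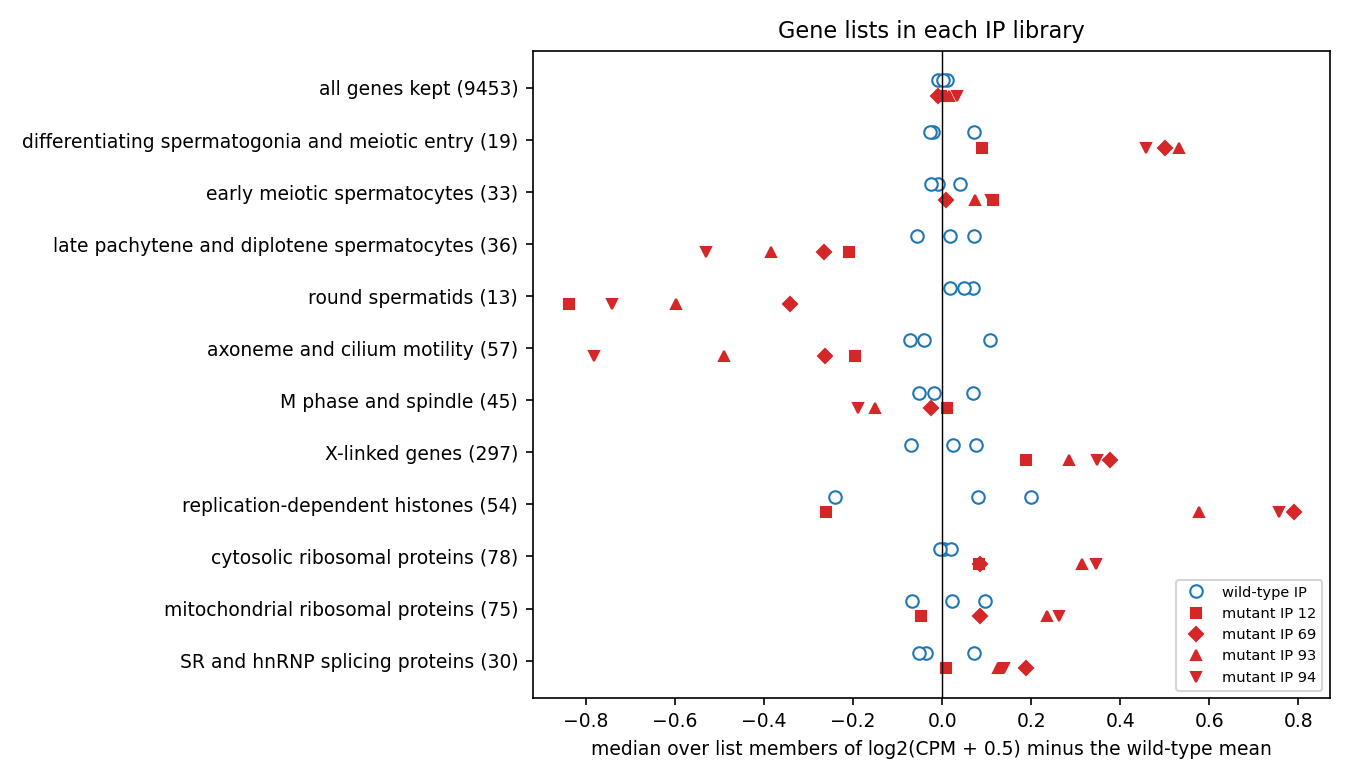
Median over the members of each gene list of log2(CPM + 0.5) minus the wild-type mean, for each IP library, with wild type as open circles and the 4 mutant animals as filled symbols and the number of genes in parentheses. Late pachytene, round spermatid and axoneme genes lie below 0 in all 4 mutant libraries, X-linked and cytosolic ribosomal protein genes above 0 in all 4, and replication-dependent histones above 0 in 3, with animal 12 at -0.26.

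X-linked genes, which are silenced as a chromosome in pachytene spermatocytes, lay mostly above 0 where they passed the count filter. Of 297 tested, 240 had log2 fold changes above 0 (80.8%), against 52.8% of 9138 autosomal genes, and the median was 0.34 against 0.03. With unadjusted p under 0.05, 39 were higher (5.53% of all genes) and 2 lower (6.08%) in edgeR. At an adjusted p under 0.05 DESeq2 called 3 higher (0.402% of all genes) and 0 lower (0.677%). The 39 became 16 to 20 with any 1 wild-type library left out, against 227 to 306 of all genes. They became 64 of 341 without mutant 12, against 848 of all 10144 genes. In 44 all mutant libraries were above all wild-type ones (6.75% of all genes) and in 2 all were below (7.21%). The median was above 0 in each mutant library, from 0.19 in animal 12 to 0.38 in animal 69. Summed CPM of the X-linked genes were 8686 to 9707 in wild type and 10071 to 12095 in mutants. No autosome had a median above 0.10.

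The 3 X-linked genes of lowest p did not overlap between genotypes. Htatsf1, a transcription and splicing factor, had 7.71, 20.8 and 24.8 CPM in wild type and 57.1, 40.2, 85.2 and 61.4 in mutants (log2 fold change 1.78, SE 0.42, adjusted p = 0.252). Rps6ka6, a ribosomal S6 kinase, had 45.1, 48.5 and 52.8 CPM against 89.6, 89.3, 72.7 and 81.5. Its wild-type and mutant CPM each formed a narrow cluster (log2 fold change 0.77, adjusted p = 0.252), while its TPM in mutants ran from 47.1 to 97.4. In input the log2 fold change was -0.24. Las1l, a factor in ribosomal RNA processing, had 26.1, 25.2 and 25.4 CPM against 52.9, 53.1, 36.5 and 50.1 (log2 fold change 0.91, adjusted p = 0.253; 0.11 in input). For the class as a whole the input median was 0.35.

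The count filter bears on the X-linked result. A further 266 X-linked genes had at least 10 counts in every wild-type IP library and fewer in at least 1 mutant library. With no filter the median of 1050 X-linked genes was -0.10 and that of all 26579 genes -0.32, so the sign turned while the X-linked median stayed above that of all genes. With unadjusted p under 0.05, 24 X-linked genes were then higher and 121 lower, against 334 and 3679 of all genes, so the 39 and 2 of the filtered set did not hold in direction. Under the filterByExpr rule the medians were 0.11 and -0.08, and 21 of 653 X-linked genes were higher and 29 lower, against 299 and 1267 of all 16241. Without mutant libraries 12 and 69, 293 of 406 X-linked genes were above 0. Of these 406, 7 were called higher and 0 lower, against 106 and 312 of all 11510 genes.

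**Figure D4:**
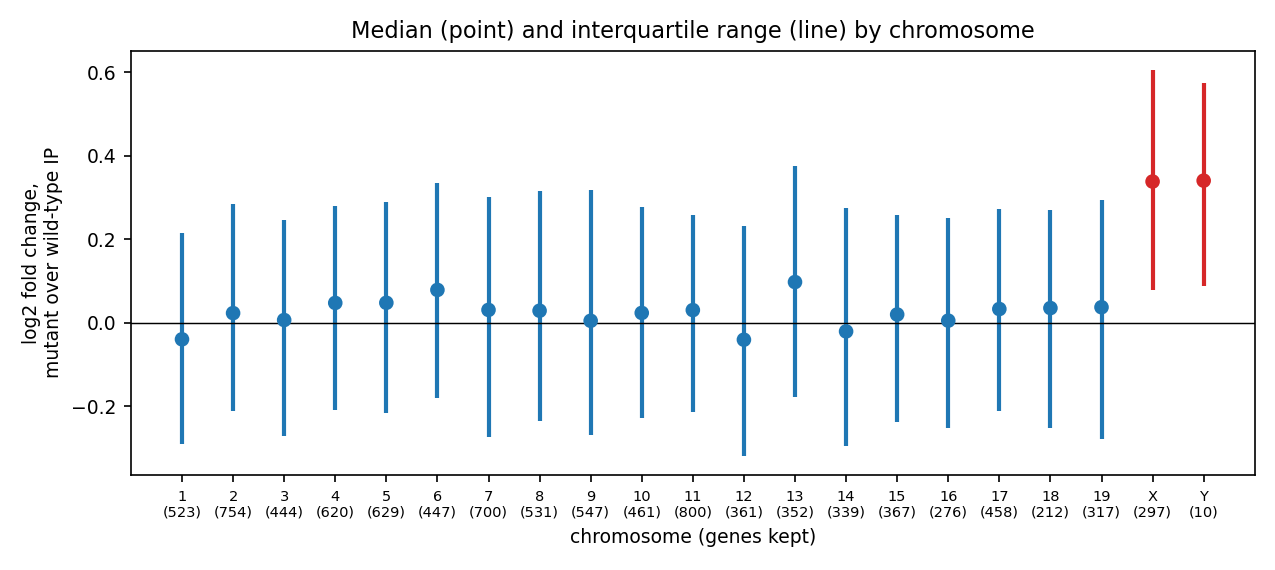
Median (point) and interquartile range (line) of the log2 fold change of mutant over wild-type IP by chromosome, with the number of genes tested in parentheses and the sex chromosomes in red. The X chromosome has a median of 0.34 over 297 genes and the Y chromosome one of 0.34 over 10 genes, while autosomes range from -0.04 to 0.10.

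Cytosolic ribosomal protein genes lay mostly above 0. Of 89 cytosolic ribosomal protein genes 78 were kept and 61 of them were above 0, with a median of 0.23. With unadjusted p under 0.05, 20 were higher (5.53% of all genes) and 1 lower in edgeR. In 14 all mutant libraries were above all wild-type ones (6.75% of all genes). The 20 became 9, 10, 12 and 13 without wild-type 121, wild-type 17, mutant 93 and mutant 94. Over all genes these fits gave 227 of 9463, 250 of 9467, 552 of 9659 and 535 of 9673 higher. Under filterByExpr the 20 became 12 of 86, with 3 lower, against 299 and 1267 of all 16241 genes. In the fit to log2(TPM + 1) 9 were higher and 4 lower, against 476 and 554 of all 9453. In that fit 49 of 78 were above 0, with a median of 0.092. The large and the small subunit had medians of 0.23 each, over 47 and 30 genes. Rpl11 had 234, 238 and 242 CPM in wild type and 371, 371, 337 and 391 in mutants, with little spread within either genotype (log2 fold change 0.63, SE 0.11, adjusted p = 0.124). Rpl22, whose protein carries the RiboTag, had 117, 113 and 113 CPM against 160, 137, 151 and 177 (log2 fold change 0.45, SE 0.15, adjusted p = 0.316).

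Rps13 lay in the other direction, with 88.3, 62.6 and 89.3 CPM in wild type and 24.5, 34.9, 27.8 and 43.4 in mutants (log2 fold change -1.29, SE 0.26, adjusted p = 0.162). Ribosomal protein genes have many near-identical processed copies, and division of reads among them by the counting program leaves single members uncertain. Summed over the list, CPM were 19024 to 19418 in wild type and 20778 to 24766 in mutants, without overlap. The list's median was 0.08 and 0.09 in animals 12 and 69 and 0.31 and 0.35 in animals 93 and 94. In input it was 0.03. Without mutant libraries 12 and 69, 14 of 83 were called higher and 1 lower, against 106 and 312 of all 11510 genes. Ribosomal protein mRNAs are known for a pyrimidine tract at their start through which their translation is controlled. In the 30 bases around the annotated start, at least 1 of the pyrimidine motifs CTTTC, its variant CTTCC and the shifted form CTCTT was found on the strand of the gene in 45.5% of 55 of these genes with a RefSeq sequence and in 13.7% of the 7337. Genes for the mitochondrial ribosome had 57 of 75 above 0 and a median of 0.13, with 2 higher and 0 lower with unadjusted p under 0.05, a smaller share than the 5.53% of all genes. That median was 0.047 without wild-type 17, 0.060 without mutant 94 and 0.0075 in the fit to log2(TPM + 1), where 41 of 75 were above 0.

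Replication-dependent histones, made in S phase, had 51 of 54 genes above 0 and a median of 0.51, with 15 higher and 0 lower with unadjusted p under 0.05, where 5.53% of all genes were higher. The numbers were 7 and 1 both under filterByExpr, over 60 genes, and in the fit to log2(TPM + 1), where the median was 0.30. Over all genes they were 299 and 1267 of 16241 under filterByExpr and 476 and 554 of 9453 in the fit to log2(TPM + 1). In only 3 did the genotypes not overlap (mutants higher, 6.75% of all genes), since animal 12 lay below the wild-type mean for 45 of the 54. Hist1h1a, a linker histone, had 2521, 2623 and 2245 CPM in wild type and 3010, 4363, 4540 and 4619 in mutants (log2 fold change 0.75, SE 0.15, adjusted p = 0.162). Hist2h3b had 45.1, 45.4 and 34.7 CPM against 38.6, 95.8, 80.8 and 115 (log2 fold change 0.98), and Hist1h4d 262, 257 and 223 against 250, 461, 367 and 375 (0.55). Both overlapped only through animal 12. Without that animal 40 of 55 histone genes were higher with unadjusted p under 0.05, against 848 of all 10144 genes. With mutant libraries 12 and 69 both left out, 35 of 55 were higher with unadjusted p under 0.05, against 1189 of all 11510. EdgeR then called 8 higher and 0 lower at an adjusted p under 0.05, against 106 and 312 of all genes. Without wild-type animal 17 the number higher with unadjusted p under 0.05 was 1 of 54, against 250 of all 9467. It was 6, 7 and 5 without wild-type 121, mutant 69 and mutant 94, against 227 of 9463, 669 of 10265 and 535 of 9673 over all genes.

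Other genes of low p that were higher in mutants served varied functions. Golga2, the cis-Golgi matrix protein GM130, had 403, 415 and 372 CPM in wild type and 610, 669, 657 and 631 in mutants (log2 fold change 0.69, SE 0.11, adjusted p = 0.0899). Dnmt1, the maintenance DNA methyltransferase, had 244, 224 and 320 CPM against 436, 433, 458 and 456 (log2 fold change 0.76, adjusted p = 0.124). In both, the 4 mutants sat close together in CPM, above all wild-type values. Mcm5, another subunit of the replicative helicase, was at 212 ± 2.98 CPM (SD, n = 3) against 329 ± 32.5 (SD, n = 4). Ptchd3, a patched-domain protein of the male germline, was at 239 ± 9.35 against 400 ± 51.6 CPM, and Hspe1, the mitochondrial co-chaperonin, at 89.6 ± 5.78 against 145 ± 14. Larger ratios belonged to genes of lower level. Spire1, an actin nucleator, had 4.04, 2.53 and 5.72 CPM against 13.4, 35.3, 26.2 and 24.6 (log2 fold change 2.60, SE 0.48, adjusted p = 0.126), and Pdlim4, a PDZ and LIM domain protein, 1.18, 1.44 and 1.21 against 5.52, 11.5, 7.54 and 4.48 (2.51). Hook3, a motor adaptor, was at 1.22. Hnrnpa1, an RNA-binding protein with many processed copies in the genome, had 37.1, 39.1 and 49.4 CPM against 123, 233, 87.0 and 94.1 (log2 fold change 1.68, adjusted p = 0.162).

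Factors of the XY body and its ATR signaling, some of which the study followed at the protein level, had 11 of 20 genes above 0 and a median of 0.11. Mdc1, the adaptor that spreads the DNA damage signal along the sex chromosomes, had 1119, 942 and 1032 CPM in wild type and 815, 734, 758 and 934 in mutants. In CPM the highest mutant was just under the lowest wild-type animal (log2 fold change -0.35, SE 0.12, unadjusted p = 0.014, adjusted p = 0.326; -0.52 in input). In TPM the ranges overlapped, at 240.7 to 358.2 in wild type and 215.7 to 285.5 in mutants. The paper reports increased ribosome association of Mdc1 in mutants, measured as the ratio of IP to input. Here the IP difference of Mdc1 minus its input difference was 0.19 (SE 0.13). The edgeR interaction of fraction and genotype, described below, gave it an unadjusted p of 0.173 and an adjusted p of 0.997. Brca1 had 80.1, 69.9 and 82.9 CPM against 133, 104, 143 and 109, higher without overlap (log2 fold change 0.66, SE 0.18, adjusted p = 0.253). Scml2, an X-linked Polycomb-related protein of germ cells, had 113, 107 and 64.5 CPM against 108, 240, 133 and 133 (log2 fold change 0.69, adjusted p = 0.397), and the ranges overlapped. Topbp1, an activator of ATR, was at -0.17 (SE 0.13), the kinase gene Atr at -0.06 (SE 0.16), the deubiquitinase gene Usp7 at -0.02 (SE 0.14) and the ubiquitin ligase gene Rnf8 at 0.36 (SE 0.21). In each of these the genotypes overlapped. Topbp1, Atr and Usp7 turned sign under other settings.

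Among chromatin genes, the HP1 gene Cbx5 had 170, 156 and 187 CPM in wild type and 115, 136, 123 and 120 in mutants, lower without overlap (log2 fold change -0.47, SE 0.14, adjusted p = 0.299). In TPM its ranges overlapped, at 63.1 to 79.2 in wild type and 45.0 to 63.9 in mutants. Cbx3 was at 0.29 (SE 0.16) and Cbx1 at 0.25 (SE 0.25), so the 3 HP1 genes did not share a direction in value. The H3K4 demethylase gene Kdm5b had 280, 394 and 336 CPM against 205, 274, 170 and 188 (log2 fold change -0.69, adjusted p = 0.253; 0.00 in input), and the H3K9 demethylase gene Kdm4d 156, 158 and 156 against 92.0, 116, 61.2 and 87.9 (-0.81). In CPM all mutants were below all wild-type libraries in both. In TPM Kdm5b of animal 69 was at 175, above the wild-type range of 103 to 113. Over the 35 heterochromatin and histone methylation genes 21 were above 0 (53.8% of all genes). With unadjusted p under 0.05, 1 was higher (5.53% of all genes) and 4 lower (6.08%), counts too few to compare with those shares.

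Elongation factors had 9 of 12 genes above 0 and a median of 0.15. Eef1d, of the nucleotide exchange complex of elongation factor eEF1, had 247, 258 and 274 CPM in wild type and 304, 286, 332 and 373 in mutants (log2 fold change 0.32, SE 0.13, adjusted p = 0.382), and Eef1g of the same complex was at 0.23 (SE 0.13). In CPM the first was clear of overlap and the second was not, and in TPM both overlapped. Initiation factors had 33 of 49 above 0 with a median of 0.05, and stalled ribosome rescue factors 8 of 21 with a median of -0.12. SR and hnRNP splicing proteins had 24 of 30 above 0 (53.8% of all genes) and a median of 0.09. Cell division genes of M phase had 29 of 45 below 0 (46.2% of all genes) and 16 above 0, with a median of -0.09. In 4 of the 45 the genotypes did not overlap with mutants lower (7.21% of all genes), too few to compare with that share. The 3 of lowest p were Prc1 of the central spindle (-0.51), Spc25 of the kinetochore (-0.73) and the cyclin gene Ccnb2 (-0.46). Each of them was without overlap between genotypes.

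The piRNA and germ granule factors had 14 of 24 below 0 and a median of -0.04, Adad2 among them. Mov10l1, the helicase of piRNA precursor processing, had 767, 803 and 765 CPM in wild type and 1062, 930, 971 and 1035 in mutants (log2 fold change 0.36, SE 0.10, adjusted p = 0.26), whereas Tdrd7, a Tudor protein of germ granules, had 632, 510 and 579 against 473, 428, 325 and 349 (-0.54, SE 0.15, adjusted p = 0.26). Both were without overlap in CPM, in opposite directions. In TPM Tdrd7 overlapped, with mutant 12 at 173 and wild-type 140 at 152. Among RNA-binding translation regulators of the germline, Boll of the DAZ family was at -0.55 (adjusted p = 0.252), and the list's median was 0.01 over 24 genes. Lists for the DNA damage response, RNA decay, proteasome, chaperonin, respiratory chain, interferon and p53 target genes had medians between -0.06 and 0.22, with at most 4 members in either direction with unadjusted p under 0.05. Undifferentiated spermatogonia had 8 of 10 genes above 0 and a median of 0.17, the 7 mitochondrially encoded genes kept a median of 0.32, and 9 noncoding RNAs kept of 175 a median of 0.14.

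Few somatic markers passed the count filter, many of them because of the mutant libraries. Of 24 Sertoli cell markers 6 were kept, of 14 Leydig markers 4, of 16 myoid and stromal markers 4, of 14 vessel and blood markers 1 and of 16 macrophage markers 0. A further 14 Sertoli, 7 Leydig, 6 myoid and stromal, 6 vessel and blood and 6 macrophage markers had at least 10 counts in every wild-type IP library and fewer in at least 1 mutant library. None of the kept ones had an unadjusted p under 0.05. Summed Sertoli marker CPM were 298 to 545 in wild type and 254 to 433 in mutants, which overlapped. Clu, a secreted Sertoli cell protein, had 33.4, 40.1 and 127 CPM in wild type and 9.14, 11.4, 63.7 and 12.5 in mutants, with 1 high library in each genotype. Their part in the differences above was not tested.

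A larger group of genes was outside the test because of the mutants. A total of 4944 genes had at least 10 counts in every wild-type IP library and fewer in at least 1 mutant IP library, and 545 of them had fewer in all 4. The reverse pattern held for 79 and 10 genes. Spin1, a reader of histone methylation, had 912, 1028 and 1179 counts in wild-type IP and was listed at 0 in all 4 mutants. Zfyve16, an endosomal protein, had 284, 267 and 432 counts against 0 in the mutants, and in mutant input it had 1411, 852, 822 and 989. Spin1 had 0, 702, 0 and 1314 counts in mutant input. Zeros of this kind were thus found in both fractions. In the other direction Slc30a7, a zinc transporter, had 0, 5 and 0 counts in wild type and 45.1, 644, 570 and 12.1 in mutants. The spike-ins missing from the mutant libraries move with these zeros, and whether such zeros reflect biology was not tested.

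Whether the IP difference went beyond the input difference was asked with an interaction of fraction and genotype in a fit with the animal as a block, over 8721 genes with at least 10 counts in all 14 libraries. No gene passed an adjusted p under 0.05 in edgeR, and 143 (1.64%) and 123 (1.41%) had an unadjusted p under 0.05 with IP above and below input. With single animals left out these were 55 to 315 and 48 to 264. DESeq2 called 1 gene, Col4a1, and its difference was lower in IP. Adad2 differed by -1.57 (SE 0.47, unadjusted p = 0.00806), Kdm5b by -0.67 (SE 0.18, unadjusted p = 0.00483) and Mlh3 by -1.15 (SE 0.33, unadjusted p = 0.00675) in edgeR. The adjusted p was 0.997 for each of them. Input and IP of an animal share their source, so the medians given for both are not independent.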

How the data were processed

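The authors homogenized testes, pulled down HA-tagged ribosomes, depleted ribosomal RNA and quantified the reads with RSEM 1.3.3 on GRCm38. They deposited, without normalization, expected counts per transcript, and TPM in the same tables. Here expected counts of Ensembl transcripts (133445 of 133849 matched) were summed to genes with GENCODE M21. The 92 spike-ins and 48888 assembled transcripts were left out. Symbols shared by several gene IDs (97) were kept apart by ID.

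Genes with at least 10 counts in all 7 IP libraries were rounded and tested in edgeR 4.0.16 (R 4.3.3) with TMM factors, estimateDisp and quasi-likelihood F-tests fitted robustly, and p-values were adjusted by Benjamini-Hochberg over all genes, with 0.05 as the threshold. Input libraries were fitted in the same way over 11912 genes. The interaction fit took the animal as a block, since both fractions came from 1 lysate. After removal of group means, fractions of the same animal correlated by 0.01 to 0.22. Alternatives used DESeq2 1.42.0 and limma 3.58.1. The deposited TPM entered the limma alternatives as log2 values with 1 or 0.1 added. Others changed the size factors, the count filter, rounding, the threshold or the libraries included. The edgeR script was tested on simulated data.

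Members and gene lists were chosen with earlier results of these data known, the lists from general knowledge. Named genes were those the study names, up to 12 per direction of smallest p without overlap between genotypes, up to 3 per list of smallest p, and called genes of largest fold. Some genes the rule gave are not reported here. Dnal4, Spin1, Zfyve16, Slc30a7 and Col4a1 were chosen after their values were seen. Lists were described by counts and medians without a set test. IP libraries held 25037235 to 30871330 counts.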

Additional observations from a re-analysis of the deposited data

Results flagged for a closer look

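Dixon's criterion at the 95% level was applied to the 4 mutant IP libraries in 60 named genes. In 5 of the 60 genes 1 library stood apart from the other 3. Chance meets this criterion in about 1 of 20 groups, so the 5 are not read as an excess. The wild-type groups of 3 were not examined in this way. Animal 12 was the low one for Hist1h1a, at 3010 CPM against 4363 to 4619 in the other mutants, and for Cbx1, at 92.0 CPM against 187 to 200. The same animal was the high one for Mlh3, at 86.0 CPM against 25.5 to 34.0. Animal 69 was low for Cntd1, at 185 CPM against 259 to 274. Animal 93 was high for Clu, at 63.7 CPM against 9.14 to 12.5. No gene had an IP difference that differed from its input difference at an adjusted p under 0.05 in edgeR, with 143 and 123 at an unadjusted p under 0.05 and 1 called by DESeq2. Among 1506 assembled transcripts that passed the count filter, edgeR called 0 higher and 0 lower.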

How the results depend on the processing

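Adad2 was called lower in every alternative run, and without single libraries its log2 fold change was -3.46 to -3.19. The number of genes called higher, 0 in edgeR, was 38 with DESeq2, 1 with no filter, 12 with limma voom and quality weights, 2 with all 14 libraries in 1 fit and 106 without mutant IP libraries 12 and 69, an alternative added after seeing the data. The number called lower, 1 in edgeR, was 64, 16, 21, 7 and 312 under the same settings and 3 with filterByExpr. Without single libraries it was 0 to 4 higher and 1 to 9 lower, the largest being 4 and 9 without mutant 12, and 2 were lower without mutant 94. The cause was not tested. The difference in detected genes kept its direction and p under both alternatives. For the interaction, leaving out the animal as replicate block gave 0 calls, DESeq2 with the replicate block gave 1, and leaving out any 1 animal gave 0. Numbers of the IP genotype comparison pair no animals. Signs turned for Topbp1 (0.19 in both fits to log2 TPM), Atr (-0.19 to 0.034 without single libraries, above 0 without wild-type 17, mutant 93 or mutant 94) and Usp7 (0.00049 with upper-quartile factors, 0.034 in both fits to log2 TPM, 0.015 with all 14 libraries, and -0.15 to 0.076 without single libraries, above 0 without wild-type 121, wild-type 17 or mutant 93). Depth was 25037235 or more counts in every IP library, and the number of animals and the spread among mutants limit what the test can call. Antisense and overlapping genes and near-identical copies share reads that counting can divide. Intervals from counting error are not given, since spread between animals exceeds them.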
